A study of Mus musculus with 28 samples.

Results

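The proteasome genes were followed across CD4+ and CD8+ mouse T cells that received no stimulation, a short stimulation or a lasting one. They were selected by symbol, as every probe set with a single gene symbol that begins with Psma, Psmb, Psmc, Psmd or Psme and a digit. This gave 76 probe sets of 43 genes, of 20380 probe sets with 1 symbol on the array (12393 genes) and 22690 probe sets in all. By symbol, 16 probe sets (8 genes) belonged to the alpha ring of the core particle, 11 (7 genes) to its beta ring, and 4 (Psmb8, Psmb9, Psmb10 and Psme1, 1 each) to the immunoproteasome. A further 11 probe sets (6 genes) belonged to the ATPases at the base of the regulatory particle, 26 (14 genes) to its other subunits and its chaperones, and 6 to the activators Psme3 and Psme4. The remaining 2, for Psmc3ip, a meiotic recombination factor, and Psme3ip1, a partner protein of Psme3, only share the first letters of the symbol and encode no subunit. The only probe set of Psme2, the partner of Psme1, was annotated to Psme2 and Psme2b together and was not used. No measured value enters the symbol rule, but the family was taken up with results of these data known, so the calls below are a description and not independent support.

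The cells were C57BL/6N T cells with a transgenic T cell receptor: CD4+ cells with the AND receptor, which recognises antigen on MHC class II molecules, and CD8+ cells with the OT1 receptor, which recognises it on class I. All cells spent 48 h in culture with interleukin 7 (5 ng/ml), either in untreated plates (unstimulated) or with plate-bound anti-CD3 and anti-CD28 antibodies coated at 10 µg/ml (stimulated), and the day 2 arrays were made from these cells. For the day 5 arrays the cells then spent 72 h in a mouse: unstimulated cells in an antigen-free host, stimulated cells in an antigen-free host (transient) or in a host that expressed their antigen (continuous, in hosts named dtg-O or dtg-M). Each group had 3 arrays, described by the submitters as biological replicates, except CD4 unstimulated and CD4 transient on day 5, with 2 each. Continuous cells had thus met both the plate-bound antibodies and antigen in the host. The RNA of the sorted cells was amplified before hybridisation, and the values are log2 signals per probe set, where a difference of 1 is a doubling. Signals of different probe sets have no common scale, so only differences within a probe set are compared.

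The proteasome is the barrel-shaped protease that degrades proteins marked with ubiquitin. Its core is a stack of alpha and beta rings. In the beta rings Psmb5, Psmb6 and Psmb7 cut the chain, and lymphocytes replace them in part with Psmb8, Psmb9 and Psmb10, which interferon gamma induces in many cell types and which favour peptides that fit MHC class I. The regulatory particle binds ubiquitin chains, removes them and unfolds the substrate with its ring of ATPases. Psme1 and Psme2 form a cap that opens the core without ubiquitin, and Psme3 and Psme4 form other, mainly nuclear, activators. Activated T cells make new protein at a high rate and depend on proteasome activity to divide.

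The sequences upstream of 4 members are shown because these genes stand for the patterns described below: Psmb8 and Psmb9, which were not called between continuous and transient CD8 cells or between continuous and unstimulated CD4 cells, and Psmb5 and Psmd12, which rose in the first of these. Each is the 250 bases before the start of the gene in RefSeq (GRCm38.p6), written 5′ to 3′ along the gene's strand. Capitals mark matches to TTCNNNGAA, the core of the gamma-activated site bound by STAT proteins, or TGANNNNGC, the core of the antioxidant response element bound by Nfe2l1 and Nfe2l2.
Psmb8, chr17:34197945-34198194, plus strand: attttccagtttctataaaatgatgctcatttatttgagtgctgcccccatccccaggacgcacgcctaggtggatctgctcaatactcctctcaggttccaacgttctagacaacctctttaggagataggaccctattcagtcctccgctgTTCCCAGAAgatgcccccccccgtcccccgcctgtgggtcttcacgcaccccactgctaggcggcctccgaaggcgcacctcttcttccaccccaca
Psmb9, chr17:34187331-34187580, minus strand: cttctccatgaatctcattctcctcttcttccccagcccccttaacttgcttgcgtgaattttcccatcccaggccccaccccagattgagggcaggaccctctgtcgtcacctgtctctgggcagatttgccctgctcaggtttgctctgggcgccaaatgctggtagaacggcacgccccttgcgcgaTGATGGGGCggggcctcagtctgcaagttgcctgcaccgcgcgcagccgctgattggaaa
Psmb5, chr14:54617996-54618245, minus strand: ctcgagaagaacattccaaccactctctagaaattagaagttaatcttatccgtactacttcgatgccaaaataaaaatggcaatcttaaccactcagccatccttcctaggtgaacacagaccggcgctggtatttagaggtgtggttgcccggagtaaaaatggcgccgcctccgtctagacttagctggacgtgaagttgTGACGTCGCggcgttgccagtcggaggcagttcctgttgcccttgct
Psmd12, chr11:107479278-107479527, plus strand: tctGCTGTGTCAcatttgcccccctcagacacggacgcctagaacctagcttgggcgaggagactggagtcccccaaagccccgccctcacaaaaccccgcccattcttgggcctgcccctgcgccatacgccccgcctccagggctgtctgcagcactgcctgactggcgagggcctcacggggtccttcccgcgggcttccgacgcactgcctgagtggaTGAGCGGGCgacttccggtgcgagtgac
The Psmb8 sequence held 1 match to TTCNNNGAA that starts 97 bases before the gene, and the Psmb9 and Psmb5 sequences held 1 match each to TGANNNNGC, at 60 and 47 bases. The Psmd12 sequence held 2, at 28 bases on the gene's strand and at 247 bases on the opposite strand. Of 34 subunit and activator genes with an entry in the RefSeq promoter table, 12 (35.3%) had TGANNNNGC on either strand within these 250 bases, beside 40.8% of 9887 genes on the array. TTCNNNGAA was present in 1 of the 34 (2.94%, Psmb8) beside 7.31% of all genes. The core of the interferon-stimulated response element, read as GAAA, any 2 bases and GAAA, was present in 3 (8.82%; Psmb3, Psmd4 and Psmd9) beside 3.35%. The last 2 motifs share the letters GAA and can overlap. These matches are letters in a window and were not measured as binding sites.

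The 3′ minus 5′ difference of beta-actin, a control on the array that shows how far toward the 5′ end the amplified RNA reached, moved with several of the groups compared and is given beside the results. On day 2 it was 3.37 to 4.30 on the unstimulated CD4 arrays and 2.28 to 4.27 on the unstimulated CD8 arrays, against 1.11 to 1.39 and 1.38 to 1.69 after stimulation. On day 5 it was 0.669 to 0.984 in unstimulated, 2.42 to 2.73 in transient and 0.401 to 0.618 in continuous CD4 cells. In CD8 cells it was 1.92 to 2.44, 0.656 to 1.02 and 0.312 to 0.557 in the same order. The groups therefore did not overlap in this control in any of the stimulation contrasts, and it was closest between continuous and unstimulated CD4 cells and between continuous and transient CD8 cells. These 2 comparisons are described first.

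**Figure D1:**
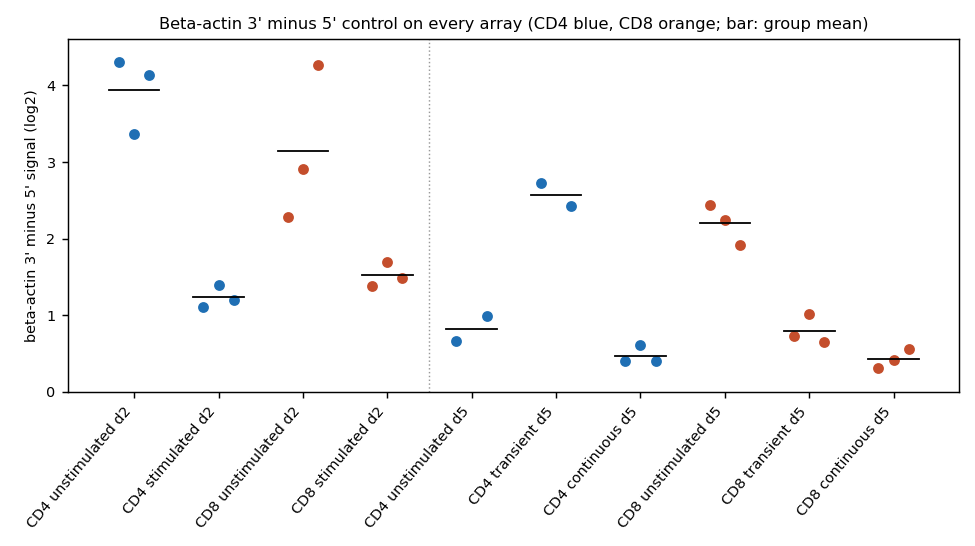
Beta-actin 3′ minus 5′ control difference (log2, vertical axis) on each array by group, for the 10 groups. Points are arrays and lines are group means; the day 2 unstimulated arrays, the CD4 transient arrays and the CD8 unstimulated day 5 arrays have the largest control differences.

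The third unstimulated CD4 and CD8 arrays of day 2 had median signals of 4.83 and 4.97, where the other day 2 arrays had 6.29 to 6.53, and they went against their labels in lineage markers. The library labelled CD4 had a Cd8a signal of 9.88 and a Cd4 signal of 5.40, and the one labelled CD8 had a Cd8a signal of 5.78. The day 2 counts of the family and the values of some of its genes are therefore given with and without them. The day 2 values of the pathway lists and the correlation of the CD4 and CD8 responses include them. In the day 5 transient CD4 arrays, B cell genes had higher signals: the 7 measured of 8 listed markers had a log2 summed signal of 12.00 to 13.86 there, against 8.06 to 9.06 in unstimulated and 8.27 to 8.56 in continuous CD4 cells. In bulk RNA a change in the cells present and a change in RNA per cell cannot be told apart.

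In CD8 cells, continuous antigen went with higher signals of most kinds of proteasome subunit than transient stimulation, while no immunoproteasome probe set was called. Of the 76 probe sets, 35 were higher and 1 was lower under continuous antigen by limma at an adjusted p below 0.05, while 14% of all 20380 probe sets were higher and 12.5% lower (26.5% in either direction). The 35 belonged to 30 genes. With the beta-actin difference as a covariate 22 of the 35 kept their call and all 35 kept their sign. With all 28 arrays in 1 fit, which leaves the differences as they are, 2 kept their call. That fit takes the spread of each probe set from both days, with the third unstimulated day 2 arrays among them. The median difference of the family was 0.38 on the log2 scale, against -0.04 over all probe sets. The beta-actin difference was slightly lower in the continuous cells (above). The calls covered 8 of 16 alpha ring, 5 of 11 beta ring, 6 of 11 ATPase, 12 of 26 other regulatory particle and 3 of 6 activator probe sets, and 1 of the 2 non-subunits.

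Among the catalytic beta subunits, Psmb7, which cuts after basic residues, had signals of 11.38, 11.40 and 11.24 in transient and 12.54, 12.20 and 11.95 in continuous CD8 cells. It rose by 0.89 (SE 0.17, limma adjusted p = 0.00142), with no overlap of the arrays. Of all probe sets, 19.3% lay wholly above and 21.6% wholly below in this comparison. Psmb5, which cuts after hydrophobic residues, had 12.00, 12.03 and 11.96 in transient cells and 12.73, 12.81 and 12.25 in continuous cells. The continuous arrays all lay above the transient arrays, and the rise was 0.60 (SE 0.16, limma adjusted p = 0.0111). Psmb6, which cuts after acidic residues, had 11.67, 11.94 and 11.43 and then 12.23, 12.19 and 11.87. Its arrays overlapped, and the difference of 0.41 (95% interval 0.01 to 0.82) did not pass the test (limma adjusted p = 0.129).

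None of the 4 immunoproteasome probe sets was called by limma between continuous and transient CD8 cells, and all 4 differences were negative. An unadjusted p below 0.05 was reached by 0 of the 4, beside 36.1% of all probe sets. With 4 probe sets, these counts of 0 set no narrow limit. Psmb8, which takes the place of Psmb5, had 12.86, 12.74 and 12.60 in transient cells and 12.77, 12.49 and 12.49 in continuous cells. The arrays overlapped, and the difference was -0.15 (95% interval -0.43 to 0.13, limma adjusted p = 0.475). Psmb9, which takes the place of Psmb6, had 12.55, 12.46 and 12.33 against 12.43, 12.49 and 11.90, a difference of -0.17 (-0.52 to 0.18, limma adjusted p = 0.515). Psmb10, which takes the place of Psmb7, had 12.13, 12.09 and 11.95 against 12.00, 11.92 and 11.31. The difference was -0.31 (-0.72 to 0.09, limma adjusted p = 0.255), and again 1 continuous array was lower than the other 2. Psme1, the cap subunit, had 12.77, 13.01 and 12.93 against 12.46, 12.49 and 12.67. Its continuous arrays all lay below its transient arrays, but the difference of -0.36 (-0.75 to 0.02) did not pass (limma adjusted p = 0.165). The upper bounds of the intervals of Psmb8, Psmb9, Psmb10 and Psme1 lie below the rises measured for Psmb5 and Psmb7. These intervals and rises are from the fit without the beta-actin covariate. Under that covariate, 1 of 11 beta ring probe sets was called higher by limma, with a class median of 0.15. The median of the 4 immunoproteasome probe sets was then -0.33, with 0 called.

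**Figure D2:**
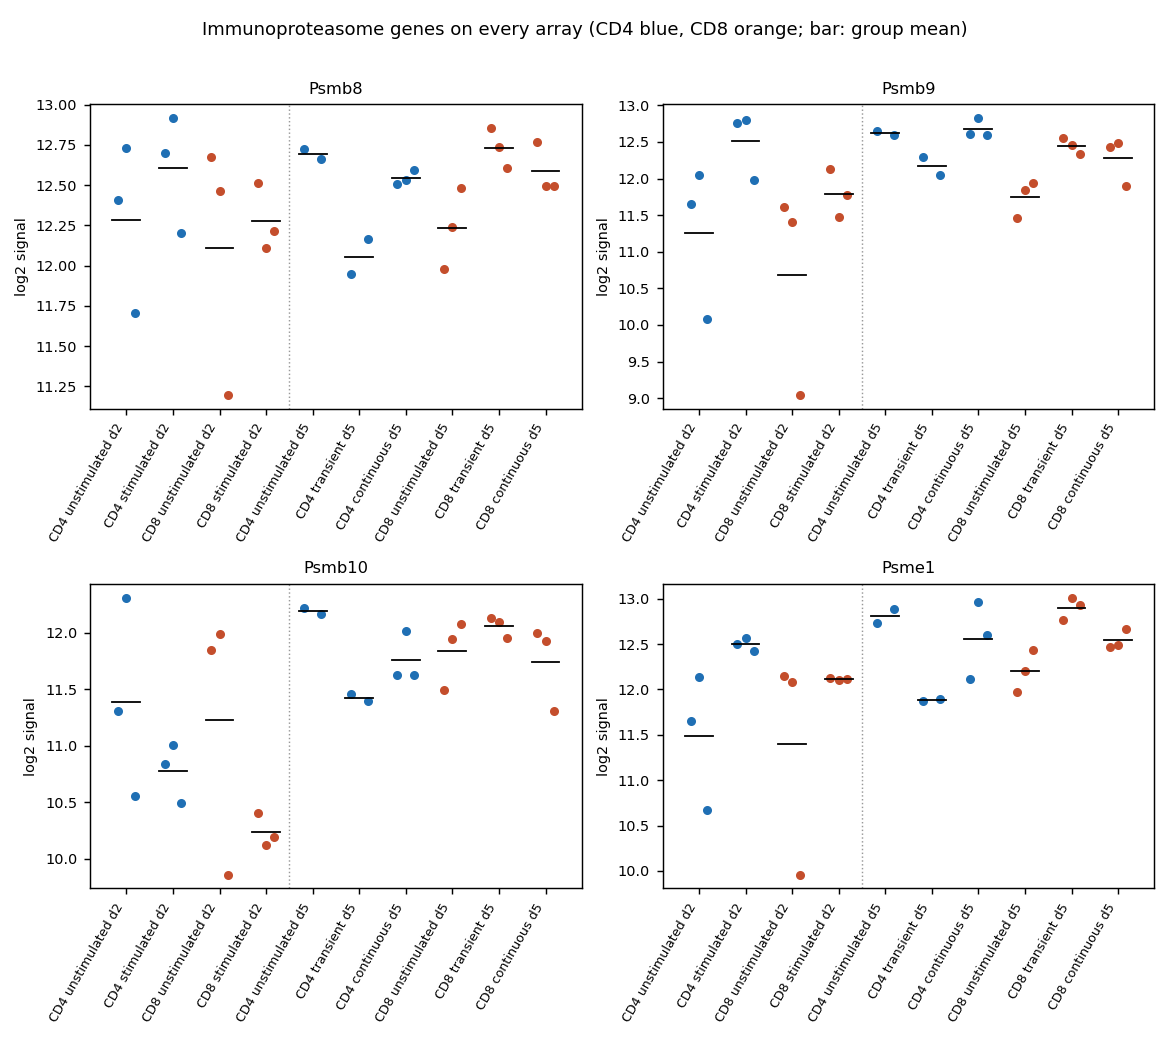
Log2 signals (vertical axis) of Psmb8, Psmb9, Psmb10 and Psme1 on every array in the 10 groups; points are arrays and lines are group means. Psmb10 is lower on the stimulated than on most unstimulated day 2 arrays, and the signals of the continuous and transient CD8 arrays lie close together.

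The activator Psme3, a nuclear cap of the core, had the largest called rise among subunits and activators. Its probe set 1418078_at had 7.82, 7.74 and 8.43 in transient and 10.19, 9.76 and 9.27 in continuous CD8 cells, a rise of 1.74 (SE 0.28, limma adjusted p = 0.00047). A further Psme3 probe set, 1418079_at, had 8.63, 8.64 and 8.42 and then 9.90, 9.90 and 9.94, a rise of 1.35 (SE 0.17, limma adjusted p = 0.000109). Neither probe set overlapped between the groups. Another Psme3 probe set, 1438509_at, did not rise. Against unstimulated CD8 cells it differed by -0.46 in transient and -0.69 in continuous cells. In the regulatory particle, the deubiquitinase-module partner Psmd7 (1451056_at) had 8.30, 7.89 and 8.38 in transient and 10.14, 10.03 and 9.33 in continuous cells. All continuous arrays were higher, and the rise was 1.64 (SE 0.24, limma adjusted p = 0.00026). The scaffold subunit Psmd1 had 9.42, 8.88 and 9.75 and then 11.12, 10.92 and 10.42, a rise of 1.47 (SE 0.23). The non-subunit Psmc3ip had the largest rise of all, 2.28 (SE 0.25), from 6.56, 6.72 and 6.47 to 9.27, 9.08 and 8.25.

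Other rises under continuous antigen were smaller. In the alpha ring, which gates the entry to the core, the called rises of Psma1, Psma3, Psma4, Psma5, Psma6 and Psma7 ran from 0.35 to 0.78. In the ATPase ring, Psmc1, Psmc2, Psmc3, Psmc4 and Psmc6 rose by 0.47 to 0.88. The scaffold subunit Psmd12 rose by 0.80 (SE 0.15), from 10.19, 10.14 and 10.05 to 11.01, 10.95 and 10.83, and Psmd14, the deubiquitinase of the lid, rose by 0.66 (SE 0.11). The single fall was probe set 1420053_at of the structural beta subunit Psmb1, by 1.09 (SE 0.23, limma adjusted p = 0.00282), from 8.34, 8.52 and 8.10 to 6.85, 7.28 and 7.57. No gene had probe sets called in opposite directions in this comparison.

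**Figure D3:**
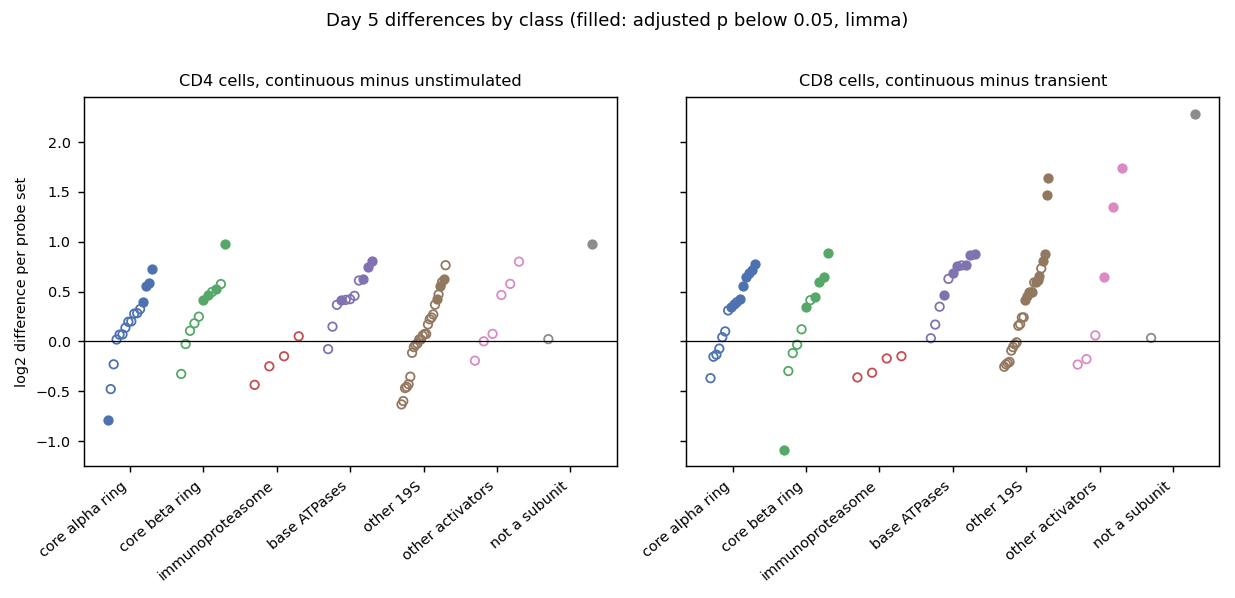
Log2 difference of each proteasome probe set (points, vertical axis) by class of subunit (horizontal axis), for continuous minus unstimulated CD4 cells and continuous minus transient CD8 cells; filled points passed an adjusted p of 0.05 in limma. The 4 immunoproteasome points are open in both panels, and filled points lie mostly above 0 in the alpha ring, beta ring and regulatory particle classes.

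In CD4 cells, continuous antigen against no stimulation gave fewer calls in the same direction. Of the 76 probe sets 16 were higher and 1 lower by limma, against 9.71% and 10.4% of all probe sets (20.1% in either direction). The family's median difference was 0.20, against -0.02 over all. With the beta-actin covariate 5 of the 16 rises kept their call and all 16 kept their sign. With all 28 arrays in 1 fit, which leaves the differences as they are but takes the spread from both days, 0 kept their call. The higher calls came from 13 genes and fell in the alpha ring (4), the beta ring (4), the ATPases (4) and the rest of the regulatory particle (3), with Psmc3ip as the last. Under the beta-actin covariate 1 of 11 beta ring probe sets was called higher by limma.

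Psmb7 had 11.19 and 11.12 in unstimulated and 12.34, 11.89 and 12.19 in continuous CD4 cells, a rise of 0.98 (SE 0.19, limma adjusted p = 0.00228). Both probe sets of the ATPase Psmc4 rose, 1416290_a_at by 0.81 (SE 0.15) and 1416291_at by 0.74 (SE 0.18, from 10.34 and 10.44 to 11.21, 11.01 and 11.19). Psmb5 had 11.99 and 11.88 and then 12.58, 12.31 and 12.50. The continuous arrays of all 3 genes lay above the unstimulated ones, and the Psmb5 rise of 0.53 (SE 0.17) was near the threshold (limma adjusted p = 0.0479). Of all probe sets, 23.3% lay wholly above and 26.1% wholly below in this comparison. Psmc3ip rose by 0.98 (SE 0.28), from 7.41 and 7.12 to 8.43, 7.87 and 8.43. Psmb6 did not pass (-0.33, limma adjusted p = 0.335). For the alpha subunit Psma1, probe set 1415695_at rose by 0.73 (SE 0.13) and the dim 1436769_at fell by 0.79 (SE 0.23, limma adjusted p = 0.0248). The dim probe set had 4.02 and 4.69 in unstimulated and 3.36, 3.21 and 4.12 in continuous cells, so its groups overlapped.

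The immunoproteasome had no call between continuous and unstimulated CD4 cells either by limma, and 0 of its 4 probe sets had an unadjusted p below 0.05 (30.8% of all probe sets did). Psmb8 had 12.72 and 12.66 in unstimulated and 12.51, 12.53 and 12.60 in continuous cells, a difference of -0.15 (95% interval -0.46 to 0.17). Psmb9 had 12.65 and 12.60 and then 12.60, 12.82 and 12.59 (0.05, -0.34 to 0.44). The Psmb8 arrays of continuous cells all lay below the unstimulated ones without passing the test (limma adjusted p = 0.571), and the Psmb9 arrays overlapped. Psmb10 had 12.22 and 12.17 and then 11.63, 12.01 and 11.63 (-0.44, -0.88 to 0.01), with all continuous arrays lower. Psme1 had 12.73 and 12.89 and then 12.11, 12.96 and 12.60 (-0.25, -0.68 to 0.18), with overlap.

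The 2 comparisons share no array, and over the 76 probe sets their differences had a Pearson r of 0.61 and a Spearman rho of 0.66, beside an r of 0.64 over all 20380 probe sets. Called higher in both were 11 probe sets, which is 68.8% of the CD4 calls and 31.4% of the CD8 calls. Over all probe sets these shares were 57.7% and 39.9%, so the overlap of the family was near that of the array. They were those of Psmb5, Psmb7, Psma1, Psma4, Psmc1, Psmc4, Psmd14, Psmc3ip, 1 probe set of Psmb4 and both of Psma7.

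Because a catalytic subunit and its immunoproteasome partner occupy the same place, the difference of their log2 signals was followed on each array. These pairs were looked at after the values were seen and have no test. Psmb8 minus Psmb5 was 0.86, 0.71 and 0.65 in transient and 0.04, -0.32 and 0.24 in continuous CD8 cells, a change of -0.75 with no overlap. In CD4 cells it was 0.74 and 0.78 without stimulation and -0.08, 0.22 and 0.10 under continuous antigen, a change of -0.68, again with no overlap. Psmb10 minus Psmb7 moved the same way, by -1.21 in CD8 cells (0.75, 0.69 and 0.71 to -0.55, -0.28 and -0.64) and by -1.42 in CD4 cells. Psmb9 minus Psmb6 differed between the cell types: it changed by -0.58 in CD8 cells (0.88, 0.52 and 0.90 to 0.20, 0.30 and 0.04) and by 0.38 in CD4 cells. From unstimulated to transient cells, Psmb8 minus Psmb5 changed by 0.73 in CD4 and by -0.81 in CD8 cells. Psmb10 minus Psmb7 changed there by 3.20 and -3.69. The beta-actin difference was larger in transient than in unstimulated CD4 cells, smaller in transient than in unstimulated CD8 cells, and lowest in continuous cells. Its part in the pair differences was not tested. The level of such a pair difference has no meaning across probe sets, and only its change between groups does.

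**Figure D4:**
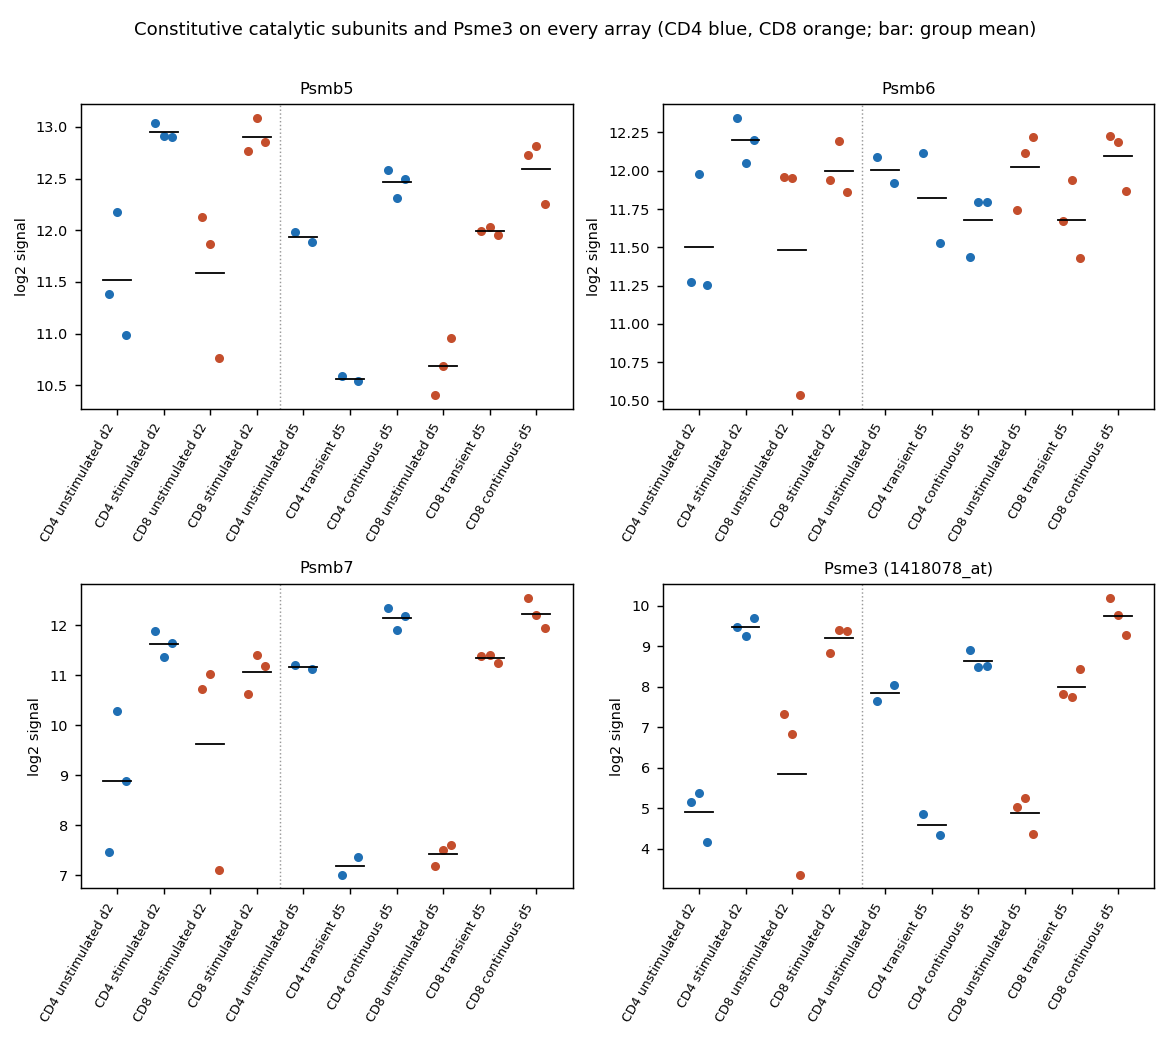
Log2 signals (vertical axis) of Psmb5, Psmb6, Psmb7 and Psme3 probe set 1418078_at on every array in the 10 groups; points are arrays and lines are group means. Psmb7 and Psme3 span several log2 units between groups, with low signals in transient CD4 and unstimulated day 5 CD8 cells, while Psmb6 stays between 11.43 and 12.23 on day 5.

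Under continuous antigen few proteasome probe sets were called between CD8 and CD4 cells. An unadjusted p below 0.05 in limma was reached by 33 of the 76 (43.4%), beside 22.7% of all probe sets. CD8 cells were higher for 9 probe sets and lower for 1 of 76 by limma (6% and 4.26% of all probe sets, 10.3% in either direction). Psme3 was the gene furthest apart: probe set 1418078_at was 8.90, 8.49 and 8.52 in CD4 cells and 10.19, 9.76 and 9.27 in CD8 cells, a difference of 1.10 (SE 0.28, limma adjusted p = 0.0229), and 1418079_at differed by 0.81 (SE 0.17). The beta subunit Psmb2 had 10.28, 10.12 and 9.92 in CD4 and 10.94, 10.90 and 10.74 in CD8 cells, a difference of 0.75 (SE 0.15, limma adjusted p = 0.00718). For these 3 probe sets the arrays of the cell types did not overlap. In all, 23 of the 76 lay wholly above and 8 wholly below in CD8 cells, beside 15.1% and 13.9% of all probe sets. The other called differences were between 0.50 and 0.56 (Psma4, Psma5, Psma7, Psmd3, Psmd11 and Psmd12), and 1436770_x_at of Psma1 was lower by 0.58 on the log2 scale in CD8 cells, at -0.58 (SE 0.15). None of the immunoproteasome genes was called; Psmb8 differed by 0.04, Psmb10 by -0.01, Psme1 by -0.02 and Psmb9 by -0.40 (limma adjusted p = 0.156).

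After 48 h of stimulation in culture the called changes of the family were all rises, but with the beta-actin difference as a covariate they were all falls. In CD4 cells 13 of 76 probe sets were higher and 0 lower by limma, with 32 at an unadjusted p below 0.05 in either direction (24.3% of all probe sets reached this), and 10.2% and 0.658% of all probe sets were higher and lower (10.9% in either direction). In CD8 cells 10 were higher and 0 lower, with 33 at an unadjusted p below 0.05 (22.3% of all), beside 7.21% and 0.736% of all (7.94% in either direction). The medians of the family were 1.23 and 1.18, against 0.13 and 0.14 over all probe sets. With the beta-actin difference, which was larger on the unstimulated arrays, as a covariate, 0 probe sets were higher and 4 lower in CD4 cells and 0 higher and 2 lower in CD8 cells by limma. The medians of the family were then -1.43 and -0.69, beside -1.40 and -0.74 over all probe sets. The control did not overlap between stimulated and unstimulated arrays, so this fit cannot tell it apart from stimulation and sets no direction. The median SE of the family was 0.88 and 0.61 in it, beside 0.38 with median centring and no covariate. With each array centred on its median, 27 were higher and 7 lower in CD4 cells and 21 and 5 in CD8 cells. The medians of the family were 0.85 and 0.79 after centring, beside -0.24 and -0.25 over all probe sets. The shares of all probe sets called with the covariate or after centring are not given, so these counts are not set against the array.

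Psme3 rose most in CD4 cells: 1418078_at was 5.17, 5.37 and 4.16 without and 9.48, 9.25 and 9.70 with stimulation, a rise of 4.58 (SE 0.80, limma adjusted p = 0.00356). In CD8 cells it went from 7.31, 6.82 and 3.36 to 8.83, 9.41 and 9.38, a rise of 3.37 (SE 0.80, limma adjusted p = 0.022). The third unstimulated CD8 array was far below the others, and the groups did not overlap in either cell type. Of all probe sets, 27.7% lay wholly above in stimulated CD4 and 26.2% in stimulated CD8 cells. The scaffold subunit Psmd11 (1429370_a_at) had 4.81, 6.47 and 4.56 and then 9.11, 8.56 and 9.28 in CD4 cells, and 6.71, 6.73 and 3.61 and then 9.14, 9.19 and 9.11 in CD8 cells. It rose by 3.70 (SE 0.75) and 3.46 (SE 0.75). Psmd2, a ubiquitin-chain docking subunit, rose by 3.36 (SE 0.75) in CD4 cells. Also called in both cell types were Psmd4, a ubiquitin receptor, Psmd6, Psmd7, the ATPases Psmc3 and Psmc5, and Psmc3ip. In all, 9 probe sets were called in both, which is 69.2% of the CD4 and 90% of the CD8 calls, beside 58.8% and 83.2% over all probe sets.

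No alpha ring, beta ring or immunoproteasome probe set was called by limma on day 2 in either cell type. Psmb8 had 12.41, 12.73 and 11.71 in unstimulated and 12.70, 12.91 and 12.21 in stimulated CD4 cells, and 12.67, 12.47 and 11.20 and then 12.51, 12.11 and 12.22 in CD8 cells. Its groups overlapped in both. Psmb10 had 11.30, 12.31 and 10.56 and then 10.84, 11.01 and 10.49 in CD4 cells, and 11.85, 11.99 and 9.86 and then 10.40, 10.12 and 10.19 in CD8 cells. It was the only immunoproteasome gene with a negative difference in both cell types (-0.61 and -0.99, limma adjusted p = 0.613 and 0.363), and in each the third unstimulated array was the low one. Psmb9 differed by 1.26 and 1.10 and Psme1 by 1.01 and 0.72, without passing. Among the constitutive catalytic subunits Psmb5 differed by 1.44 and 1.31 (limma adjusted p = 0.0564 and 0.0921), Psmb6 by 0.70 and 0.52 and Psmb7 by 2.76 and 1.45.

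Without the third unstimulated arrays the day 2 counts changed by more than 1.5 times. In CD4 cells 42 probe sets were then higher and 11 lower (24.6% and 37.8% of all probe sets), and in CD8 cells 20 and 6 (15.7% and 19.1%). Psmb10 then passed as lower in both cell types, with -1.03 (SE 0.28, limma adjusted p = 0.0124) in CD4 and -1.68 (SE 0.28, limma adjusted p = 0.00272) in CD8 cells. Psmb5 passed as higher, with 1.17 (SE 0.24) and 0.90 (SE 0.24), and Psmb8 did not pass (0.04 and -0.29). Psme1 passed in CD4 cells, with 0.60 (SE 0.17, limma adjusted p = 0.0131), and not in CD8 cells. Psme3 stayed the gene with the largest rise in CD4 cells (4.21, SE 0.24), and Psmd11 that in CD8 cells (2.43, SE 0.41).

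Between the cell types on day 2, 0 of 76 probe sets were called by limma in stimulated CD8 against CD4 cells (0.00981% of all probe sets were higher and 0% lower). An unadjusted p below 0.05 was reached by 0 of the 76, beside 1.1% of all. The response to stimulation also differed for 0 probe sets (0% of all in either direction), with 0 at an unadjusted p below 0.05, beside 0.594% of all. With the spread of the third arrays in the fit, these counts set no narrow limit. With the third arrays included, the CD4 and CD8 responses, which share no array, had a Pearson r of 0.93 over the 76 probe sets. Over all probe sets it was 0.91.

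Transient stimulation against no stimulation on day 5 gave opposite pictures in the CD4 and CD8 cells, and so did the beta-actin control, which was larger in transient CD4 cells but smaller in transient CD8 cells than in the unstimulated cells. In CD4 cells 10 of 76 probe sets were higher and 25 lower by limma (9.12% and 13.7% of all, 22.8% in either direction). In CD8 cells 23 were higher and 11 lower (16% and 14.2% of all, 30.3% in either direction). Of the probe sets 61 (80.3%) differed in opposite directions between the cell types, beside 70.3% of all probe sets. Called lower in CD4 and higher in CD8 cells were 17, which is 68% of the CD4 falls and 73.9% of the CD8 rises, 7 were called the other way round, and 0 were called in the same direction. Over all probe sets the shares of falls and rises were 66% and 56.4%. The 2 comparisons share no array, and their Pearson r was -0.91 over the 76 probe sets (Spearman rho -0.82) and -0.54 over all probe sets. The transient CD4 arrays were also those with the B cell markers, of which 5 of 7 were called higher than in unstimulated CD4 cells. The part of the B cell markers in these values was not tested. With the beta-actin difference as a covariate the calls went from 35 to 0 in CD4 and from 34 to 4 in CD8 cells. The control did not overlap between these groups, so this fit cannot tell it apart from stimulation. The median SE of the family was then 0.52 and 0.42, beside 0.19 and 0.15 with median centring and no covariate.

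Psmb7 had 11.19 and 11.12 in unstimulated and 7.01 and 7.37 in transient CD4 cells, a fall of 3.97 (difference -3.97, SE 0.21, limma adjusted p = 4.65e-07). In CD8 cells it had 7.18, 7.51 and 7.60 and then 11.38, 11.40 and 11.24, a rise of 3.91 (SE 0.17, limma adjusted p = 3.36e-08). The transient CD4 arrays and the unstimulated CD8 arrays were the low ones. The ATPase Psmc5 had 10.76 and 10.27 and then 7.09 and 7.34 in CD4 cells (-3.30, SE 0.28), and 7.06, 7.77 and 7.55 and then 10.55, 10.33 and 9.89 in CD8 cells (2.80, SE 0.23). Psme3 (1418078_at) had 7.64 and 8.04 and then 4.85 and 4.34 (-3.24, SE 0.34), and in CD8 cells 5.03, 5.25 and 4.36 and then 7.82, 7.74 and 8.43 (3.12, SE 0.28). Psmd11 (1440253_at) differed by -2.42 (SE 0.36) in CD4 and 2.94 (SE 0.29) in CD8 cells. None of these 4 probe sets overlapped between unstimulated and transient cells in either cell type. Of all probe sets, 31.1% lay wholly above and 30.5% wholly below in transient CD4 cells (2 arrays against 2). In CD8 cells these shares were 19.8% and 21.9%.

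Probe sets that moved the other way were fewer and changed less. The x_at probe set of the ATPase Psmc2 (1435859_x_at) had 11.78 and 12.02 and then 12.86 and 12.90 in CD4 cells, a rise of 0.98 (SE 0.14). In CD8 cells it had 12.76, 12.92 and 12.97 and then 12.01, 12.13 and 11.85, a fall with a difference of -0.89 (SE 0.12). Psme4, an activator that caps the core in the nucleus, rose by 0.92 (SE 0.22) on 1426823_s_at in CD4 cells and differed by -0.67 (SE 0.18) in CD8 cells. Psmd6, a lid subunit, rose by 0.81 (SE 0.16) on 1423696_a_at in CD4 cells and differed by -0.98 (SE 0.13) in CD8 cells. Psmc3ip, at -0.81 (SE 0.25), was also among the 3 largest falls in CD8 cells.

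The called immunoproteasome genes fell in CD4 and rose in CD8 cells. With the beta-actin difference as a covariate, Psmb8 differed by 0.28 in CD4 and -0.24 in CD8 cells and did not pass (limma adjusted p = 0.87 and 0.806). The median SE of the 4 immunoproteasome probe sets was then 0.64 and 0.52, so that fit sets neither direction. In CD4 cells Psmb8 fell from 12.72 and 12.66 to 11.95 and 12.16 (-0.64, SE 0.16, limma adjusted p = 0.0112), Psmb10 from 12.22 and 12.17 to 11.45 and 11.39 (-0.77, SE 0.23, limma adjusted p = 0.0263) and Psme1 from 12.73 and 12.89 to 11.87 and 11.89 (-0.93, SE 0.22, limma adjusted p = 0.0075). Psmb9 did not pass, with 12.65 and 12.60 against 12.30 and 12.05 (-0.45, limma adjusted p = 0.134). In CD8 cells Psmb8 rose from 11.98, 12.24 and 12.48 to 12.86, 12.74 and 12.60 (0.50, SE 0.13, limma adjusted p = 0.0105). Psmb9 rose from 11.46, 11.85 and 11.94 to 12.55, 12.46 and 12.33 (0.70, SE 0.16), and Psme1 from 11.97, 12.21 and 12.44 to 12.77, 13.01 and 12.93 (0.70, SE 0.18). Psmb10 did not pass (0.22, limma adjusted p = 0.411). Psmb5 changed more than any of these, by -1.37 (SE 0.19) in CD4 and 1.31 (SE 0.16) in CD8 cells.

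**Figure D5:**
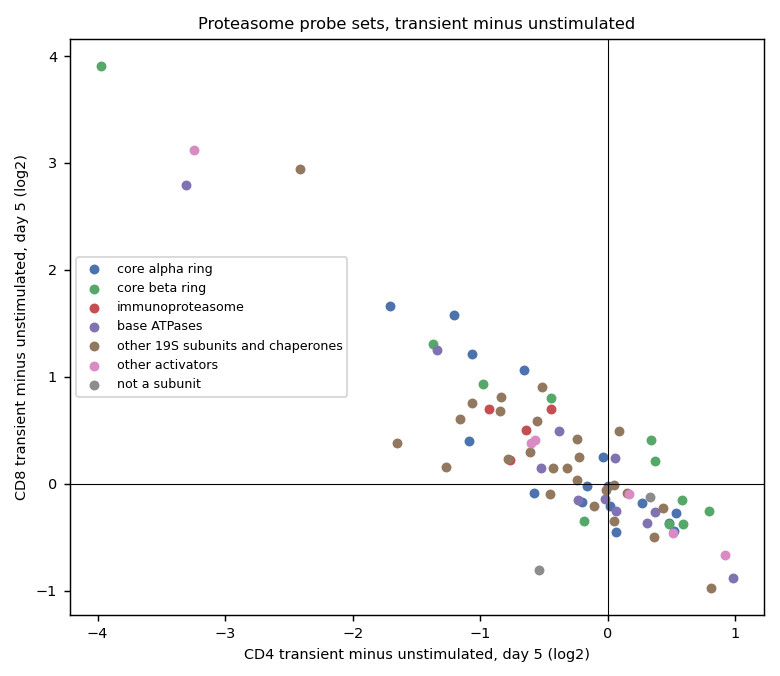
Log2 difference of transient minus unstimulated day 5 cells in CD4 cells (horizontal axis) against CD8 cells (vertical axis) for the 76 proteasome probe sets; the 2 comparisons share no array. The points run from the upper left to the lower right, with Psmb7, Psmc5 and Psme3 near the upper left end.

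Within single genes, probe sets sometimes disagreed in these comparisons. In transient against unstimulated CD4 cells Psma5, Psma6 and Psmb4 had probe sets called in opposite directions. For Psmb4, a structural beta subunit, 1451205_at fell from 12.92 and 12.85 to 11.86 and 11.95 while 1438984_x_at rose from 11.88 and 11.92 to 12.27 and 12.50. In CD8 cells 6 genes did so (Psma6, Psmb3, Psmb4, Psmc2, Psmd6 and Psme3). For Psmc2, 1426611_at rose from 10.81, 11.24 and 11.27 to 11.65, 11.59 and 11.56, against the fall of 1435859_x_at given above. A direction for these genes therefore depends on which probe set is read.

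The remaining day 5 comparisons each contain one of the groups just described, so their values are set side by side without further reading. With the beta-actin difference as a covariate, continuous against transient CD4 cells gave 0 calls, continuous against unstimulated CD8 cells 4, unstimulated CD8 against CD4 cells 4 and transient CD8 against CD4 cells 0. Psmb8 changed sign in all 4 comparisons, to -0.62, -0.58, 0.26 and -0.26, and passed in none with the covariate (limma adjusted p = 0.743, 0.566, 0.773 and 0.872). The control did not overlap between the groups of these comparisons, so this fit cannot tell it apart from them. The median SE of the family was then 0.61, 0.52, 0.42 and 0.52, beside 0.17, 0.15, 0.17 and 0.17 with median centring and no covariate. Continuous against transient CD4 cells gave 34 probe sets higher and 6 lower by limma (18.2% and 15.2% of all, 33.4% in either direction). The rises of Psmb7, Psme3 (1418078_at) and Psmc5 were 4.95, 4.04 and 3.45 (SE 0.19, 0.31 and 0.25), and the largest falls were -1.12 for Psme4 (1426823_s_at), -0.57 for Psmc2 (1435859_x_at) and -0.51 for Psme3 (1438509_at). All 7 B cell markers were lower there. Psmb8 was higher by 0.49 (SE 0.15, limma adjusted p = 0.0193) and Psme1 by 0.68 (SE 0.20, limma adjusted p = 0.0174), while Psmb9 and Psmb10 did not pass (0.50 and 0.33). Psmc2, Psmd4, Psmd7, Psme3 and Psme4 had probe sets called in opposite directions.

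Continuous against unstimulated CD8 cells gave 38 probe sets higher and 9 lower (22% and 24% of all, 46% in either direction). Psme3 (1418078_at), Psmb7 and Psmc5 rose by 4.86, 4.80 and 3.43 (SE 0.28, 0.17 and 0.23). The largest falls were -0.85 for Psme4 (1426823_s_at), -0.81 for Psmd6 (1423696_a_at) and -0.72 for Psmd7 (1454368_at). Psmb8 and Psmb9 were higher by 0.35 (SE 0.13, limma adjusted p = 0.0416) and 0.53 (SE 0.16, limma adjusted p = 0.0176), and Psmb10 and Psme1 did not pass. Psmb4, Psmc2, Psmd4, Psmd6, Psmd7, Psme3 and Psme4 had opposite calls among their probe sets.

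Unstimulated CD8 against CD4 cells on day 5 gave 13 probe sets higher and 24 lower (12.9% and 14.8% of all, 27.7% in either direction). Psmb7, Psmc5 and Psme3 (1418078_at) were lower in CD8 cells, at -3.73, -3.06 and -2.96, and Psmb2, Psmc2 (1435859_x_at) and Psmd6 (1423696_a_at) higher, at 1.06, 0.98 and 0.93. Psmb8, Psmb9 and Psme1 were lower, at -0.46, -0.87 and -0.60. Psma6, Psmb4, Psmc2, Psmd7 and Psme3 had opposite calls. Transient CD8 against CD4 cells gave 26 higher and 8 lower (15.3% and 11.1% of all, 26.4% in either direction), with Psmb7, Psme3 and Psmc5 higher by 4.15, 3.40 and 3.05, and Psmc2, Psme4 and Psmd6 lower, at -0.88, -0.87 and -0.86. Psmb8, Psmb10 and Psme1 were higher by 0.68, 0.63 and 1.02, and Psma6 and Psmb4 had opposite calls.

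The difference between continuous and transient cells was itself different between CD8 and CD4 cells for 23 probe sets by the interaction contrast in limma, 8 with a positive and 15 with a negative difference (7.36% and 10.2% of all, 17.6% in either direction). The negative ones were led by Psmb7 (-4.06, SE 0.25, limma adjusted p = 4.10e-06) and Psmc5 (-2.83, SE 0.34, limma adjusted p = 0.00013). Psme1 and Psmb8 were among them, at -1.04 and -0.64, and Psmb9 and Psmb10 were not called.

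Other genes of the pathway were read from lists of 1 probe set per gene. Of 26 listed assembly factors and regulators of the proteasome 20 were measured, and under continuous antigen 7 rose and 0 fell in CD8 cells against transient cells by limma, beside 14% and 12.5% of all probe sets. Uchl5, a deubiquitinase of the regulatory particle, rose by 1.71 (SE 0.19), Rad23b, a shuttle for ubiquitinated proteins, by 0.88, and Vcp, the segregase that extracts them from complexes, by 0.78. In CD4 cells against unstimulated cells 3 rose (Uchl5 by 1.08, the assembly chaperone Pomp by 0.61 and Ufd1, a Vcp cofactor, by 0.47) and 2 fell (Ubqln4 at -0.85 and Nfe2l1, the factor that drives proteasome genes, at -0.43), beside 9.71% and 10.4% of all. On day 2, 7 of the 20 rose in CD4 and 4 in CD8 cells, beside 10.2% and 7.21% of all. Rad23b rose by 3.89 and 3.60, Uchl5 by 3.14 and 2.28, Nfe2l1 by 2.53 and 2.54, and the assembly chaperone Psmg1 by 3.92 in CD4 cells. These day 2 values include the third unstimulated arrays and are from the fit without the beta-actin covariate.

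Of 14 listed genes of MHC class I presentation 11 were measured. Under continuous antigen 3 rose in CD8 cells, the endoplasmic reticulum chaperones Pdia3, Calr and Canx, by 1.41, 0.90 and 0.88, beside 14% of all probe sets, and in CD4 cells 1 did (Canx, 0.50), beside 9.71%. The peptide transporter genes Tap1 and Tap2, Tapbp and B2m were not called in either. In transient against unstimulated cells 7 of the 11 fell in CD4 cells and 7 rose in CD8 cells, beside 13.7% and 16% of all probe sets. Of 21 listed interferon-response genes 19 were measured, and their median difference under continuous antigen was -0.72 in CD8 and -0.42 in CD4 cells. In CD8 cells Irf8 rose by 2.85 while Ifit3, Irf9 and Oas1a fell, at -2.37, -1.22 and -1.16. In CD4 cells Gbp3 and Irf8 rose by 2.28 and 2.25, and Ifit3, Oasl2 and Ifit2 fell, at -2.60, -2.41 and -0.90. Irf1, a factor for the immunoproteasome genes, was called in neither. Of 13 listed ubiquitin and ligase genes 6 were measured, and Ube2n and Ube2k, which conjugate ubiquitin, rose in both comparisons (1.39 and 0.66 in CD8, 0.97 and 0.58 in CD4 cells). The ubiquitin ligase gene Huwe1 fell in CD4 cells (-0.69, limma adjusted p = 0.0318) and was not called in CD8 cells.

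The number of calls in several comparisons rested on single arrays. On day 2 in CD4 cells there were 13 calls, and 6 without unstimulated array 1, 4 without stimulated array 1, 5 without stimulated array 2 and 4 without stimulated array 3. In CD8 cells there were 10, and 17 or 20 without unstimulated array 1 or 2, and 2, 1 and 1 without stimulated array 1, 2 and 3. On day 5, 36 calls between continuous and transient CD8 cells became 23 without continuous array 1. The 17 calls between continuous and unstimulated CD4 cells became 7 and 6 without unstimulated array 1 and 2. Without unstimulated CD4 array 1, the 35 calls between transient and unstimulated CD4 cells became 21, and the 37 between unstimulated CD8 and CD4 cells became 23. For continuous CD8 against CD4 cells the 10 calls became 5 and 6 without CD4 array 1 and 2, and 3, 5 and 16 without CD8 array 1, 2 and 3. The 23 calls of the interaction contrast became 13 without transient CD4 array 1.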

How the data were processed

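T cell RNA of 28 samples was measured on Affymetrix Mouse 430A2 arrays. The deposited values are log2 signals per probe set that the authors made with RMA, per the submitters' processing notes, in a version not given; they were used as deposited, and no probe intensity was read. The number of arrays limits the precision. Left out were 64 control probe sets, used only for the beta-actin difference, 691 with several symbols and 1555 with none. No filter on low values was applied: all 76 members entered the fit, of which 8 had a mean below the 30th percentile of all probe sets.

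Each day was fitted alone with limma 3.58.1 in R 4.3.3 (a mean per group, moderated variances, 12 arrays and 8 residual degrees of freedom on day 2, 16 and 10 on day 5), over all 20380 probe sets, with Benjamini-Hochberg adjustment and a threshold of 0.05. The fit was tested on simulated data, and figures were drawn in Python 3.11.15 with matplotlib 3.10.9. Where nothing says that same-numbered samples share an animal, the numbers were checked by the correlation of deviations from the group means. Of the comparisons with 3 pairs, only transient and unstimulated CD8 cells were over 0.1 in all (0.47, 0.30 and 0.16). There the replicate block gave 32 calls in place of 34. Comparisons with fewer pairs were also over 0.1 throughout for continuous and unstimulated CD4 cells (0.38 and 0.25) and for unstimulated CD8 and CD4 cells (0.39 and 0.32). The block lowered the count for continuous against unstimulated CD4 cells, as given below.

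Members and lists were chosen with earlier results of these data known. Named were the immunoproteasome and catalytic probe sets, per comparison the 3 called probe sets with the largest rise and the 3 with the largest fall, genes with opposite calls, non-subunits, and up to 3 called genes per list; others named were chosen after their values were seen. Alternatives were another normalization, median centring, a filter on low values, 1 probe set per gene, a stricter threshold, a beta-actin covariate, all arrays in 1 fit, a replicate block and each array left out.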

Additional observations from a re-analysis of the deposited data

Results flagged for a closer look

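For 23 proteasome probe sets the difference between continuous and transient cells on day 5 was itself different between CD8 and CD4 cells, by the interaction contrast in limma at an adjusted p below 0.05. Values are the CD8 difference minus the CD4 difference on the log2 scale. The difference was smaller in CD8 cells for Psmb7 (-4.06), Psmc5 (-2.83), Psmd11 on 1440253_at (-2.70), Psme3 (-2.30), Psma3 (-1.48), Psmc4 (-1.31), Psmb5 (-1.30), Psmb4 (-1.10), Psme1 (-1.04), Psma4 (-0.92), Psma1 (-0.83), Psma6 on 1416506_at (-0.81), Psmd10 (-0.73), Psmb8 (-0.64) and Psmd11 on 1456104_at (-0.50). It was larger in CD8 cells for Psma6 on 1437144_x_at (0.57), Psma5 (0.59), Psma7 (0.63), Psmc2 (0.74), Psmb2 (0.74), Psmc6 (0.76), Psmd5 (0.91) and Psme4 (0.94). The transient CD4 arrays that enter this contrast carry the beta-actin difference of 2.42 to 2.73 and the B cell markers, whose part in these values was not tested. With the beta-actin difference as a covariate, 0 of the 23 contrasts passed in limma. The median SE of the family's contrasts was then 0.53, beside 0.23 with median centring and no covariate.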

How the results depend on the processing

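Counts are probe sets called in either direction. Leaving out 1 array at a time gave, for stimulated against unstimulated cells on day 2, 4 to 18 calls in CD4 (13 with all arrays) and 1 to 20 in CD8 cells (10), and 0 to 0 for their difference and for stimulated CD8 against CD4. On day 5 it gave 21 to 32 for transient against unstimulated CD4 (35), 6 to 15 for continuous against unstimulated CD4 (17), 29 to 39 for continuous against transient CD4 (40), 28 to 36, 39 to 47 and 23 to 40 for transient against unstimulated, continuous against unstimulated and continuous against transient CD8 (34, 47 and 36), 23 to 33, 23 to 31 and 3 to 16 for unstimulated, transient and continuous CD8 against CD4 (37, 34 and 10), and 13 to 23 for the interaction (23). In the order used below (day 2 CD4, day 2 CD8, transient against unstimulated CD4, continuous against transient CD4, continuous against unstimulated CD4, transient against unstimulated CD8, continuous against transient CD8, continuous against unstimulated CD8, unstimulated, transient and continuous CD8 against CD4, interaction), all 28 arrays in 1 fit gave 37, 35, 4, 7, 0, 6, 2, 13, 6, 6, 0 and 1. The beta-actin covariate gave 4, 2, 0, 0, 9, 4, 24, 4, 4, 0, 11 and 0, where the day 2 calls were all falls and not rises. On day 2 the control did not overlap between stimulated and unstimulated arrays, so that fit cannot tell it apart from stimulation. With the covariate, among called values, Psmb8 changed sign to 0.28 in transient against unstimulated CD4, -0.62 in continuous against transient CD4, -0.24 in transient and -0.58 in continuous against unstimulated CD8, and 0.26 and -0.26 in unstimulated and transient CD8 against CD4. Psmb9 changed to -0.028 in continuous against unstimulated CD8, and Psmb10 to -0.12 in transient CD8 against CD4. None of these 8 values passed the test with the covariate, and the cause of the sign changes was not tested. An adjusted p below 0.01 left 4 and 1 on day 2, 23 for transient and 5 for continuous against unstimulated CD4, 22 for continuous against transient CD8, 20 and 2 for transient and continuous CD8 against CD4 and 10 for the interaction. With 1 probe set per gene, and so fewer probe sets, there were 5 for day 2 CD8, 22 and 24 for transient against unstimulated and continuous against transient CD4, 22 and 28 for transient and continuous against unstimulated CD8, and 23 and 5 for unstimulated and continuous CD8 against CD4. Median centring gave 34 and 26 on day 2, and quantile normalization 19 for day 2 CD8. Without the third unstimulated arrays day 2 gave 53, 26 and, for the difference in response, 2. With the replicate block continuous against unstimulated CD4 gave 11 and the interaction 14; no other count of calls moved by over 1.5 times. A crossed pairing of the transient and unstimulated CD4 arrays, chosen after seeing the data, gave 35. Of 1162 values of named genes under an alternative, 964 kept their direction and their side of the threshold, 106 no longer passed and 27 newly passed. In 65 the sign changed, 30 of them with the beta-actin covariate; 8 of the 65 had passed the test, and 57 passed it under neither setting.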

Other observations

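The macrophage lysozyme gene Lyz2, which T cells do not make, ranged from 5.30 to 11.88 over the day 5 arrays, and arrays of 1 group differed in it. Between continuous and transient CD8 cells no listed MHC class II gene was called by limma. The T cell genes Cd3d, Cd3g and Cd247 were called lower there (-1.08, -0.65 and -0.38), and Cd3e and Thy1 were not called. The part of other cells in the day 5 comparisons was not tested.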
